A study of Mus musculus with 7 samples.

Results

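The 9 genes followed here mark proprioceptors and other large-diameter sensory neurons and were measured in mouse lumbar dorsal root ganglia after sciatic nerve injury: Pvalb, Runx3, Etv1, Calb1, Cntnap2, Faim2, Necab2, Vsnl1 and Whrn. They were taken by symbol from a table of 54309 genes, and each of the 9 matched 1 row. Ganglia L4-6 of C57bl/6 mice labelled male and aged 6 to 8 weeks were collected 72 h after the injury. The injury was made at Zeitgeber time (ZT, hours after lights on) 20 in 4 samples and at ZT8 in 3. Each ganglion was both injured and dissected at its ZT, so the hour of injury and the hour of dissection cannot be told apart, and no uninjured ganglia were analysed here. The ganglia were dissociated and enriched for neurons on an albumin gradient before low-input RNA sequencing. Whether a sample came from 1 animal or from several is not stated, so the p-values measure the spread between these samples.

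Proprioceptors are the large myelinated neurons that carry signals of muscle length and tension to the spinal cord, and myelinated low-threshold mechanoreceptors serve touch. During development neurotrophin-3, acting on its receptor TrkC, sustains proprioceptors, and the transcription factors Runx3 and Etv1 direct their identity and the growth of their central axons. Mature proprioceptors contain parvalbumin, encoded by Pvalb, a calcium buffer also found in fast muscle and in many inhibitory neurons of the central nervous system. In a dissociated ganglion these genes report on a minority of the cells, and most are also used by other neurons.

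The promoter of Pvalb is shown because the comparison is of times of day and the core clock factors bind short motifs upstream of their targets. It covers the 250 bases before the annotated start (RefSeq, GRCm38.p6, chr15:78206401-78206650, minus strand), written 5′ to 3′, with capitals on the 6 letters that come nearest to the E-box CACGTG (5 of 6 letters matching).

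Pvalb: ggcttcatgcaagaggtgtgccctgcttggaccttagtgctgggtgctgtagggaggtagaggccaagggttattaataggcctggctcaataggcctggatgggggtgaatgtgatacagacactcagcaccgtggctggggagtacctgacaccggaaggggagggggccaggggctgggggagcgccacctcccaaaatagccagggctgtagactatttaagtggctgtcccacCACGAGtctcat

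A stretch with at least 5 of the 6 E-box letters occurs in 57.0% of all such 250-base windows. RefSeq windows from 250 bases before to 50 after the start were found for 7 of the 9 genes (12 windows). Searched on both strands, 0 of the 12 held the E-box CACGTG, its variant CACGTT, the D-box TTATGTAA or the cAMP response element TGACGTCA. Among all 32851 windows the shares were 7.15%, 4.68%, 0.938% and 1.79%. These are descriptions of the letters in short windows, and no binding was measured.

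All samples are labelled male, but 4 Y-linked genes summed to only 0.0162 and 0.00868 TPM in ZT20 replicates 3 and 4, against 33.1 to 84.6 TPM in the other 5 libraries. ZT20 replicate 2 held both Y-linked transcripts and Xist (1.08 TPM), so 3 of the 4 ZT20 libraries go against that label. ZT8 replicate 2 had the fewest genes above 0 TPM, 18297, against 22541 to 25238 elsewhere. TPM (transcript abundance scaled to a fixed total) sums to 1000000 in every library, and the sequencing depth is unknown.

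All 9 genes were above 0 TPM in every library. On the TPM scale, which is corrected for transcript length, 6 of them formed an abundant group with mean levels of 75.4 to 206 TPM over the 7 libraries, and 3 a scarce one at 3.08 to 6.18 TPM. Pvalb led at 206 TPM (percentile 93.5 of the 14800 genes tested), followed by Faim2 at 157, Vsnl1 at 140, Cntnap2 at 115, Etv1 at 92.5 and Calb1 at 75.4 TPM. Necab2 at 6.18, Whrn at 3.47 and Runx3 at 3.08 TPM came last. Within the abundant group each gene was above the next in 5 or 6 of the 7 libraries, so no pair of neighbours kept 1 order throughout. Calb1 was above Necab2 in 7 of 7 libraries, and among the scarce genes the order again changed between libraries.

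**Figure D1:**
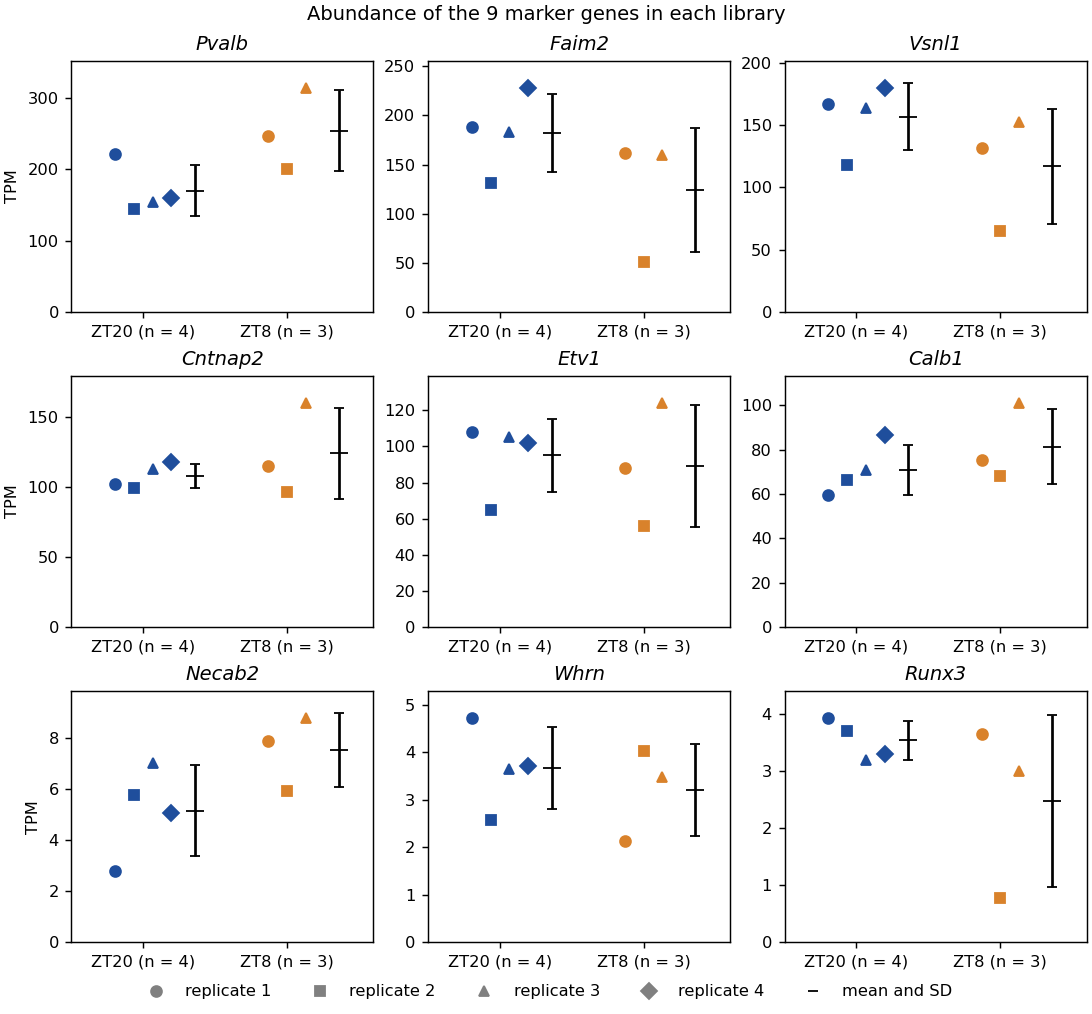
TPM of each marker gene in each library (symbols are replicates, ZT20 blue and ZT8 orange, each axis from 0), with the group mean and SD beside the points. The groups overlap in all 9 panels, and ZT8 replicate 2 is the lowest library for Faim2, Vsnl1, Runx3, Etv1 and Cntnap2.

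Between the injury times, 0 of the 9 genes passed the test in either direction, by limma on log2(TPM + 1) with an adjusted p-value under 0.05 over the 14800 genes whose mean reached 1 TPM. Of all genes tested 16.4% were called, 12.8% higher and 3.61% lower at ZT20. At an unadjusted p-value under 0.05 there was 1 of the 9, Pvalb, against 34.6% of all genes. The groups overlapped for all 9 genes, whereas they did not overlap for 33.2% of all genes. The differences were positive for 5 genes and negative for 4, with a median of 0.13, beside 0.23 over all genes, of which 33.6% were negative. That shift of 0.23 means that a gene at 0 on this scale stood below the typical gene, and median-ratio scaling between libraries removed most of it, leaving 0.030. The split of all called genes then changed from 1899 higher and 534 lower to 1127 higher and 1161 lower. The intervals do not show that the levels were equal: the widest, for Faim2, ran from −0.19 to 1.59.

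In this fit Pvalb had the smallest p-value of the 9, with a negative difference. Its levels were 222, 144, 154 and 160 TPM at ZT20 (replicates 1 to 4, in that order throughout) and 247, 201 and 314 TPM at ZT8 (replicates 1 to 3). Of the ZT20 libraries 3 lay below every ZT8 library, and ZT20 replicate 1 lay above ZT8 replicate 2. The means were 170 ± 35.4 TPM (SD, n = 4) and 254 ± 56.6 TPM (SD, n = 3). Its log2 difference, ZT20 minus ZT8, was −0.58 (SE 0.19), with a 95% interval from −1.02 to −0.13 (limma adjusted p = 0.075). Relative to the median of all genes the Pvalb difference was −0.81.

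The Pvalb call depended on the processing. Median-ratio scaling gave −0.81 (limma adjusted p = 0.0275), array weights −0.71 (adjusted p = 0.0189), and the fit without ZT8 replicate 2 gave −0.73 (adjusted p = 0.0365). In these fits 15.5%, 26.3% and 20.6% of all genes were called. At a threshold of 0.10 Pvalb was called, as were 27.6% of all genes. It was not called after a correction for transcript length and GC content (−0.50, limma adjusted p = 0.179) or under quantile normalization (−0.56, adjusted p = 0.0784). Of the fits with 1 library left out, only that without ZT8 replicate 2 called Pvalb. Without ZT8 replicate 3 the difference was −0.41 (limma adjusted p = 0.18). Without ZT20 replicates 3 and 4, which lacked Y-linked transcripts, the Pvalb difference was −0.48 (adjusted p = 0.413). With ZT20 replicate 2 left out as well it was −0.17 from 1 remaining ZT20 library (adjusted p = 0.863), a fit that assumes that library to vary like the ZT8 ones. Over all alternatives Pvalb stayed negative, and its adjusted p-value ran from 0.00359 to 0.863. In bulk RNA, fewer cells of a type and less RNA per cell cannot be told apart.

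Parvalbumin is also abundant in fast muscle fibres and in interneurons of the spinal cord, so markers of both were read out. The 9 genes of fast skeletal muscle summed to 6.01 to 12.5 TPM at ZT20 and 7.22 to 15.9 TPM at ZT8, with 4 of the 9 under 1 TPM in every library. The 9 genes of spinal cord neurons and oligodendrocytes summed to 1.13 to 2.80 TPM at ZT20 and 0 to 1.01 TPM at ZT8. Of these, 2 were at 0 in every library and 7 under 1 TPM in every library. The part of either tissue in the Pvalb level was not tested.

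**Figure D2:**
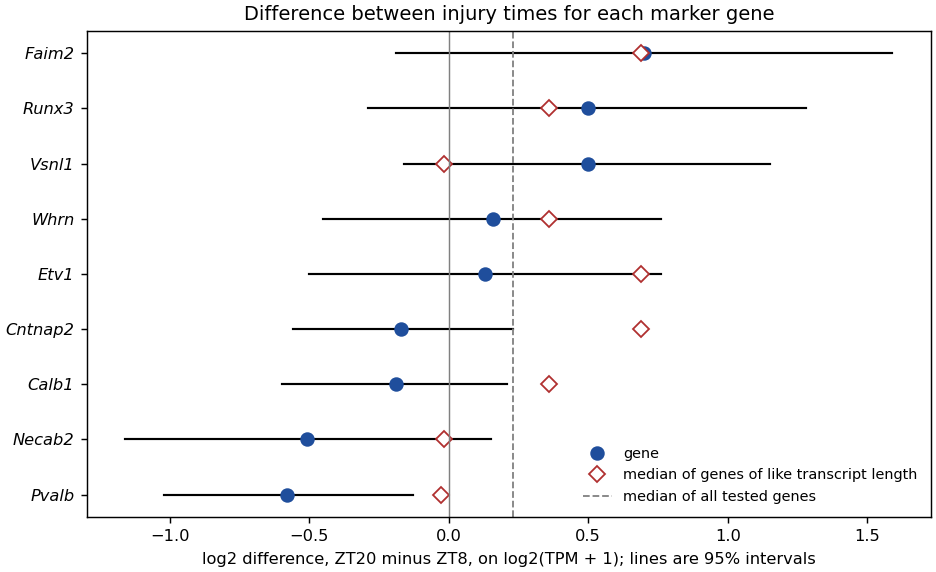
Log2 difference (ZT20 minus ZT8, on log2(TPM + 1)) of each marker gene, with its 95% interval as a line, the median of all tested genes as a dashed line at 0.23, and the median of genes in the same transcript length class (1 of 10) as an open diamond. Only the interval of Pvalb (−1.02 to −0.13) lies wholly on 1 side of 0.

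The identity factors Runx3 and Etv1 did not pass the test. Runx3 had 3.93, 3.70, 3.20 and 3.31 TPM at ZT20 and 3.66, 0.773 and 3.0 TPM at ZT8. Apart from ZT8 replicate 2 all libraries lay between 3.0 and 3.93 TPM. The Runx3 difference was 0.50 (SE 0.34, limma adjusted p = 0.334), and without ZT8 replicate 2 it was 0.067 (adjusted p = 0.822). An antisense gene, Gm16224, overlaps Runx3 in GENCODE M21, and whether reads of the 2 strands were separated is not stated. T and NK cells also use Runx3; 8 of their 9 marker genes were tested and 0 were called, with sums of 9.31 to 53.0 TPM at ZT20 and 27.7 to 102 TPM at ZT8, and their part in the Runx3 level was not tested.

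Etv1, an ETS factor needed for the connection of muscle afferents to motor neurons, was at 108, 65.0, 105 and 102 TPM at ZT20 and at 88.1, 56.1 and 124 TPM at ZT8. Replicate 2 was the lowest library in each group, and ZT8 replicate 3 the highest of all. The Etv1 difference was 0.13 (SE 0.28, limma adjusted p = 0.765). Its sign turned without ZT8 replicate 2 (−0.16), so it has no stable direction here. Median-ratio scaling, which lowers nearly all genes alike, gave −0.099. Without ZT20 replicates 3 and 4 the Etv1 difference was −0.018.

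Of the 7 RUNX and PEA3-group ETS factors, Runx3 and Etv1 included, all were tested; 1 was called higher at ZT20 and 0 lower, with a median difference of 0.16. The called gene was Runx1, the factor of small-diameter nociceptors, at 18.1, 19.4, 24.5 and 17.1 TPM at ZT20 and 4.58, 12.9 and 5.69 TPM at ZT8. It differed by 1.36 (SE 0.31, limma adjusted p = 0.0231). Runx1 passed in 7 of 23 alternatives, among them the main fit at a threshold of 0.10, which any called gene passes. It did not pass under median-ratio scaling (1.14, adjusted p = 0.0514 by limma). Cbfb, the shared partner of RUNX proteins and the most abundant of the other 5, differed by 0.16 (limma adjusted p = 0.325), with the sign turning to −0.073 under median-ratio scaling.

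Beside Pvalb 3 members buffer or sense calcium through EF-hand domains: Calb1, Necab2 and Vsnl1. Calb1, which encodes the buffer calbindin, was at 59.6, 66.4, 70.9 and 86.4 TPM at ZT20 and at 75.4, 68.2 and 101 TPM at ZT8. The ranges overlapped widely, with ZT20 replicate 1 lowest and ZT8 replicate 3 highest. Its difference was −0.19 (SE 0.18, limma adjusted p = 0.470), and −0.031 without ZT8 replicate 3.

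Necab2, a neuronal calcium-binding protein, was at 2.79, 5.76, 7.04 and 5.08 TPM at ZT20 and at 7.90, 5.92 and 8.79 TPM at ZT8. Only ZT20 replicate 3 lay above the lowest ZT8 library. The Necab2 difference was −0.51 (SE 0.29, limma adjusted p = 0.244). It was negative in all 23 alternatives, of which the threshold of 0.10 reuses the main fit, but −0.29 without ZT20 replicate 1.

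Vsnl1, which encodes the calcium sensor visinin-like 1, was at 167, 118, 164 and 180 TPM at ZT20 and at 132, 64.7 and 153 TPM at ZT8. Of the ZT20 libraries 3 lay above all ZT8 libraries, and ZT20 replicate 2 lay between them. The difference was 0.50 (SE 0.29, limma adjusted p = 0.251). Without ZT8 replicate 2 it fell to 0.12 (adjusted p = 0.664).

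Among 17 cytosolic EF-hand genes of neurons, these 4 included, 14 were tested, 2 were called higher at ZT20 and 0 lower, and the median difference was 0.11. Necab1 was 1 of the called genes; it is a relative of Necab2. Necab1 was at 49.4, 53.5, 63.0 and 62.3 TPM at ZT20 and 28.8, 44.8 and 30.2 TPM at ZT8, a difference of 0.73 (SE 0.18, limma adjusted p = 0.0315). That call was lost without any 1 library other than ZT8 replicate 2, with adjusted p-values up to 0.10. Under median-ratio scaling 0 of the list were called higher and 1, Pvalb, lower; that scaling lowers nearly all genes alike.

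Cntnap2 encodes Caspr2, which holds potassium channels at the juxtaparanodes beside the nodes of Ranvier of myelinated axons. It was at 102, 99.6, 113 and 118 TPM at ZT20 and at 115, 96.8 and 160 TPM at ZT8. All ZT20 libraries lay within the ZT8 range. The Cntnap2 difference was −0.17 (SE 0.17, limma adjusted p = 0.520), and without ZT8 replicate 3 it turned to 0.031.

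Some partners of Cntnap2 were higher at ZT20. Of the 8 genes of the juxtaparanode, Cntnap2 included, 4 were called higher at ZT20 and 0 lower, beside 12.8% and 3.61% of all genes. Their median difference was 0.92, and Cntnap2 was the 1 with a negative difference. Adam22, a member of the complex, was at 126, 178, 128 and 154 TPM at ZT20 and 36.1, 68.9 and 27.0 TPM at ZT8 (difference 1.81, SE 0.29, limma adjusted p = 0.00795). Cntn2, the adhesion partner of Caspr2, differed by 1.48 (limma adjusted p = 0.0115), Kcna2, a channel subunit held there, by 1.2 (adjusted p = 0.0098), and Epb41l3, which links Caspr2 to the membrane skeleton, by 0.89 (adjusted p = 0.0159). The Kcna2 call was lost after correcting for length and GC (0.49, adjusted p = 0.192) and, with its difference at 1.24, in the fit with the replicate block (adjusted p = 0.055), and that of Cntn2 after correcting for length and GC (0.77, adjusted p = 0.0519). Without ZT20 replicate 3 the adjusted p-value was 0.0503 for Cntn2, and for Epb41l3 it reached 0.0599 without ZT20 replicate 3 or 4. Pan-neuronal scaling, to genes of all sensory neurons, also removed the Epb41l3 call (0.36, limma adjusted p = 0.14). Adam22, Cntn2 and Kcna2 kept their calls under it. Whether Cntnap2 differs from its partners was not tested.

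At the neighbouring paranode and node 4 of 6 genes were called higher and 0 lower, beside 12.8% and 3.61% of all genes. The median difference was 1.01. Cntnap1, the paranodal relative of Cntnap2, differed by 1.71 (limma adjusted p = 0.033), the node anchor Ank3 by 1.38 (adjusted p = 0.00577), the nodal sodium channel gene Scn8a by 1.02 (adjusted p = 0.0126) and Cntn1 by 1.00 (adjusted p = 0.00693). Without ZT20 replicate 3 Scn8a missed the threshold (adjusted p = 0.0544), as did Cntnap1 without ZT20 replicate 1, 3 or 4 (adjusted p up to 0.0972). Without ZT20 replicate 3, 2 genes of each of the juxtaparanodal and paranodal lists were called. Over all genes the count called higher fell from 1899 to 543 in that fit. Without ZT8 replicate 2 the Cntnap1 difference was 1.09 (adjusted p = 0.0127). Pan-neuronal scaling removed the calls of Scn8a (0.49, limma adjusted p = 0.0944) and Cntnap1 (1.18, adjusted p = 0.0594). Ank3 and Cntn1 stayed called under it, at 0.85 and 0.47 (limma adjusted p = 0.0273 and 0.0366). With the replicate block Scn8a was at 0.91 (limma adjusted p = 0.0523).

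Transcript length moved with these differences. The median longest transcript was 6830 nt for the tested juxtaparanodal genes and 9243 nt for the paranodal and nodal ones, beside 3108 nt over all genes. Among the 1475 genes with the longest transcripts (6491 nt or more), which include Cntnap2, Etv1 and Faim2, the median difference was 0.69. Once a trend on length and GC content had been subtracted within each library, 2 juxtaparanodal genes were called higher and 1, Cntnap2, lower (−0.84, limma adjusted p = 0.0277), and 1 paranodal gene was called higher (Scn8a was then at 0.25, Ank3 at 0.65 and Cntnap1 at 1.10, with adjusted p-values of 0.365, 0.0671 and 0.0824), where 9.06% of all genes were called. With the replicate number as a block in the same fit, Cntnap2 was at −0.85 (adjusted p = 0.0472), with 3.78% of all genes called. Cntnap2 has 28 overlapping genes in GENCODE M21, 24 of them on its strand; whether they share its reads was not tested.

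Faim2 encodes an inhibitor of death through the Fas receptor that is used widely by neurons. It was at 188, 131, 183 and 228 TPM at ZT20 and at 162, 51.1 and 160 TPM at ZT8. Of the ZT20 libraries 3 lay above all ZT8 libraries, and ZT8 replicate 2 stood lowest. The difference was 0.70 (SE 0.39, limma adjusted p = 0.236). Without ZT8 replicate 2 it was 0.15 (adjusted p = 0.622), and after the length and GC correction it was −0.097. Of 8 genes made up of Faim2, its relatives and Fas, 0 were called in either direction, and the median difference was 0.042. Ghitm, the most abundant relative, differed by −0.14 (limma adjusted p = 0.366).

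Whrn encodes whirlin, a scaffold protein known from the hair cells of the ear and present at proprioceptor endings. It was at 4.72, 2.58, 3.65 and 3.71 TPM at ZT20 and at 2.14, 4.02 and 3.47 TPM at ZT8, with the groups interleaved. The Whrn difference was 0.16 (SE 0.27, limma adjusted p = 0.702), and its sign turned under both median-ratio scaling (−0.026) and quantile normalization (−0.15). Of 8 whirlin partners and whirlin itself taken as 1 list, 5 were tested and 0 called. The most abundant, Gnai3, differed by −0.026 (limma adjusted p = 0.923).

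The 9 genes did not vary as 1 block across libraries. On gene-centred log2(TPM + 1) values, the closest pair was Calb1 and Cntnap2, with a root-mean-square distance of 0.10 over the 7 libraries. Faim2 and Vsnl1 followed at 0.20, then Etv1 and Vsnl1 at 0.22 and Runx3 and Vsnl1 at 0.25. The farthest pair was Faim2 and Necab2, at 0.82. ZT8 replicate 2 was the lowest library for 5 of the 9 genes and ZT8 replicate 3 the highest for 5. In ZT8 replicate 2 the deviation from the gene's mean was −1.49 for Faim2, −1.14 for Runx3 and −1.04 for Vsnl1, whereas it was 0.018 for Pvalb. The median deviation of all tested genes in that library was −0.22.

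**Figure D3:**
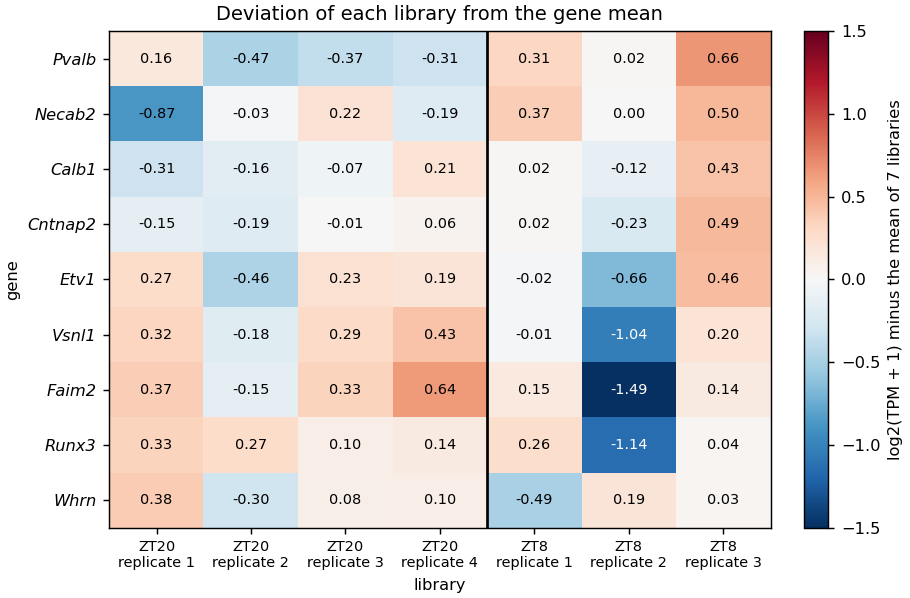
Deviation of each library (columns, ZT20 left of the line, ZT8 right) from the gene's mean over 7 libraries, on log2(TPM + 1), for each marker gene (rows); red is above and blue below the mean. The blue cells of ZT8 replicate 2 reach −1.49 for Faim2, while Pvalb is at 0.018 there and highest, at 0.66, in ZT8 replicate 3.

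The ratio of Pvalb to another member within 1 library does not depend on the scaling between libraries. Pvalb to Vsnl1 was 1.33, 1.22, 0.938 and 0.889 at ZT20 and 1.87, 3.11 and 2.05 at ZT8. Every ZT20 library lay below every ZT8 library. Pvalb to Faim2 ran from 0.704 to 1.18 at ZT20 and from 1.53 to 3.94 at ZT8, and Pvalb to Etv1 from 1.47 to 2.21 and from 2.54 to 3.59. The ratios to Calb1, Cntnap2, Necab2 and Whrn overlapped between the groups. Ratios were thus apart and lower at ZT20 for 4 of 8 members, Runx3 being the fourth. The share among 13821 genes above 0 in every library was 45.5%, so a count of 4 of 8 is near that background.

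The genes with profiles most like that of Pvalb, among 8105 genes whose mean reached 10 TPM, were Rpl14, Pecr, Uqcrfs1, Id3 and Pex2, at distances of 0.13 to 0.15 against a median of 0.50. Rpl14 was at 284, 230, 241 and 249 TPM at ZT20 and 339, 316 and 416 TPM at ZT8. For the other members the nearest genes were Brd9 (Runx3), Meaf6 (Etv1), Ccdc174 (Calb1), Mchr1 (Cntnap2), Nckipsd (Faim2), Panx1 (Necab2), Reep2 (Vsnl1) and Thop1 (Whrn), at distances of 0.033 to 0.13. With 7 libraries and so many candidates such likeness describes these samples only.

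Other genes of proprioceptors and myelinated mechanoreceptors included several that were higher at ZT20. Of 29 listed genes 28 were tested, 11 were called higher and 0 lower, with a median difference of 0.58. Of all genes 12.8% were called higher and 3.61% lower. Ntrk3 is also counted in the neurotrophin list and Scn8a in the nodal list. Without ZT20 replicate 3 the count called higher was 3, and 6 without ZT20 replicate 1 or 4. With the replicate block it was 5. Over all genes the count called higher fell from 1899 to 543, 946 and 691 without ZT20 replicate 3, 1 and 4. With the block it was 891 over all genes. Median-ratio scaling gave 8 higher and 1 lower. Pan-neuronal scaling gave 3 higher and 2 lower, and correcting for length and GC gave 3 and 1. Over all genes median-ratio scaling gave 1127 higher and 1161 lower, pan-neuronal scaling 477 and 3454, and the length and GC correction 561 and 775. Esrrg, a nuclear receptor of large neurons, was at 11.0, 5.44, 11.4 and 9.72 TPM at ZT20 and 2.57, 1.62 and 1.70 TPM at ZT8 (difference 1.78, SE 0.28, limma adjusted p = 0.00778). Nefh, the heavy neurofilament subunit of large axons, was at 653, 672, 620 and 650 TPM against 230, 194 and 360 TPM (difference 1.36, SE 0.19, adjusted p = 0.00569). Nefh fell to 0.83 under pan-neuronal scaling and to 0.88 after correcting for length and GC, and stayed called. With the replicate block joined to that correction Nefh and Esrrg both missed the threshold (limma adjusted p = 0.0659 and 0.0687). Ntng1 differed by 1.33 (adjusted p = 0.0284) and Maf, a factor of mechanoreceptors, by 1.29 (adjusted p = 0.0249). With 1 library left out the adjusted p-value reached 0.0936 for Ntng1 and 0.0822 for Maf, both losing the call without ZT20 replicate 1, 3 or 4, and Ntng1 also without replicate 2. Correcting for length and GC gave 0.78 for Ntng1 (adjusted p = 0.131) and 0.67 for Maf (adjusted p = 0.159), and both calls were also lost under quantile normalization and pan-neuronal scaling. Nefl, the most abundant of the list, differed by 0.28 and did not pass (adjusted p = 0.488).

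Of 6 neurotrophin genes of this pathway 5 were tested, 1 was called higher and 0 lower, with a median of 0.38. Ntrk3, which encodes TrkC, was at 47.8, 42.4, 49.1 and 66.1 TPM at ZT20 and 31.4, 25.0 and 32.5 TPM at ZT8, a difference of 0.76 (SE 0.18, limma adjusted p = 0.026). Its transcripts are long, and the Ntrk3 call was lost after the length and GC correction (0.14). It was also lost without ZT20 replicate 1, 3 or 4 (limma adjusted p up to 0.0777). Pan-neuronal scaling removed it too (0.23, limma adjusted p = 0.326), also with Eno2 left out of that scaling (0.40, adjusted p = 0.131). Ngfr, the most abundant, differed by 0.73 (limma adjusted p = 0.0509).

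Genes of small-diameter neurons were also among those higher at ZT20. Of 20 listed and tested genes 9 were called higher and 0 lower, with a median of 0.71, beside 12.8% and 3.61% of all genes called. Without ZT20 replicate 3 there were 3 called higher, and 5 without ZT20 replicate 1 or 4. The count over all genes fell from 1899 to 543, 946 and 691 without ZT20 replicate 3, 1 and 4. Median-ratio scaling left 7 called higher beside 1 lower, pan-neuronal scaling 2 beside 2, and correcting for length and GC 5 beside 1. Over all genes these fits called 1127 higher beside 1161 lower, 477 beside 3454, and 561 beside 775. Adcyap1, which encodes the peptide PACAP, differed by 1.71 (limma adjusted p = 0.00673), Sst, encoding somatostatin, by 1.61 (adjusted p = 0.0262) and the sodium channel gene Scn11a by 1.18 (adjusted p = 0.00769). Sst passed in 9 of 22 alternatives, the main fit at a threshold of 0.10 among them. Its call was lost at a pseudocount of 0.1, where the difference was 3.0 (limma adjusted p = 0.0577). It was also lost in 5 of the fits without 1 library. The Scn11a call was lost after correcting for length and GC (0.59, adjusted p = 0.0797) and under pan-neuronal scaling (0.65, adjusted p = 0.0505). Calca, which encodes the peptide CGRP, differed by 0.089 (adjusted p = 0.731). The difference between the lists was not tested. Without ZT20 replicates 3 and 4, 0 genes of any kind were called by limma (0.0%), the 9 marker genes among those not called, and 2425 of 14800 (16.4%) had an unadjusted p-value under 0.05.

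**Figure D4:**
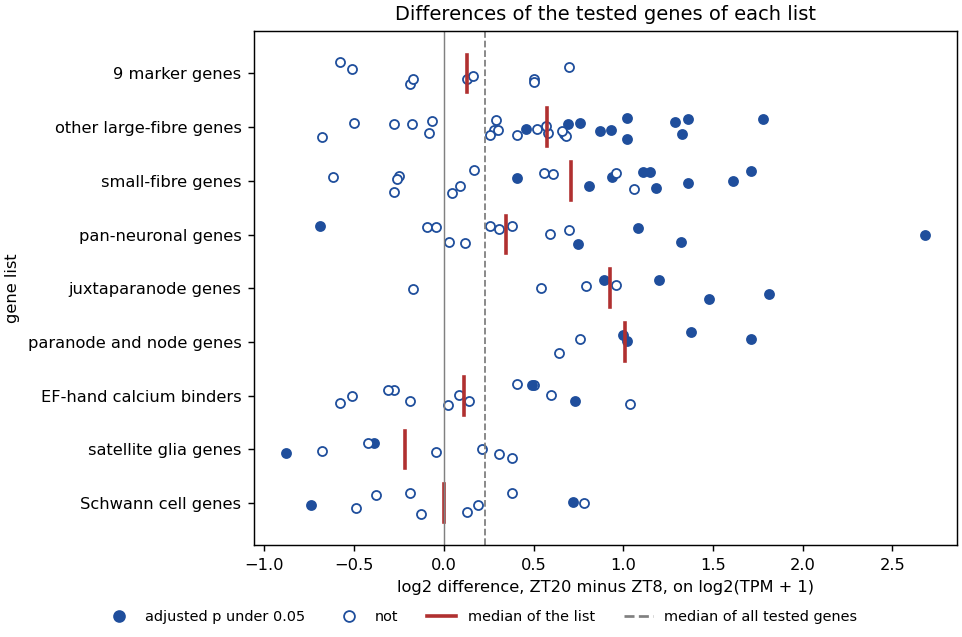
Log2 difference (ZT20 minus ZT8, on log2(TPM + 1)) of every tested gene of 9 lists, with filled points for an adjusted p-value under 0.05, red lines for list medians and the dashed line for the median of all genes at 0.23. The 9 marker genes hold no filled point and a median of 0.13, and the other large-fibre genes 11 filled points and a median of 0.58.

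Some markers of neurons as a whole and of glia were also called. Of 14 pan-neuronal genes 4 were called higher and 1 lower at ZT20, with a median of 0.34, and their mean log2(TPM + 1) was 9.22 to 9.29 in the ZT20 libraries and 8.60 to 8.81 in the ZT8 libraries. Eno2, the neuronal enolase, weighed most in this, with a difference of 2.68 (limma adjusted p = 0.00193). Of 8 satellite glia genes 0 were called higher and 2 lower, and their sum was 6987 to 8472 TPM at ZT20 and 11791 to 14478 TPM at ZT8, mostly Apoe (difference −0.88, adjusted p = 0.00657), whose call was lost under quantile normalization (−0.48, adjusted p = 0.108). Of 10 Schwann cell genes 1 was called higher and 1 lower. Their part in the levels of the 9 marker genes was not tested.

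Some of the marker genes were called lower once set against the pan-neuronal genes of the same library. After scaling to the mean of those genes, 4 of the 9 were called lower and 0 higher by limma, where 26.6% of all genes were called: Pvalb (−1.10, adjusted p = 0.00359), Necab2 (−1.03, adjusted p = 0.026), Calb1 (−0.72, adjusted p = 0.0131) and Cntnap2 (−0.69, adjusted p = 0.010). The median of all genes moved to −0.29 under that scaling, a shift that the scaling gives to nearly every gene alike, the 4 called ones included. With Eno2 left out of the scaling 3 were called, Pvalb (−0.94), Calb1 (−0.55) and Cntnap2 (−0.53), with limma adjusted p-values of 0.0116, 0.0403 and 0.0312, where 16.9% of all genes were called and their median was −0.13. Faim2, Vsnl1, Runx3, Etv1 and Whrn were not called under either scaling. A fit with the pan-neuronal score as a covariate called Etv1, Faim2 and Vsnl1 lower, and 9.33% of all genes, but the score does not overlap between the groups. With the replicate number as a block 0 of the 9 were called, and 7.93% of all genes.

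**Figure D5:**
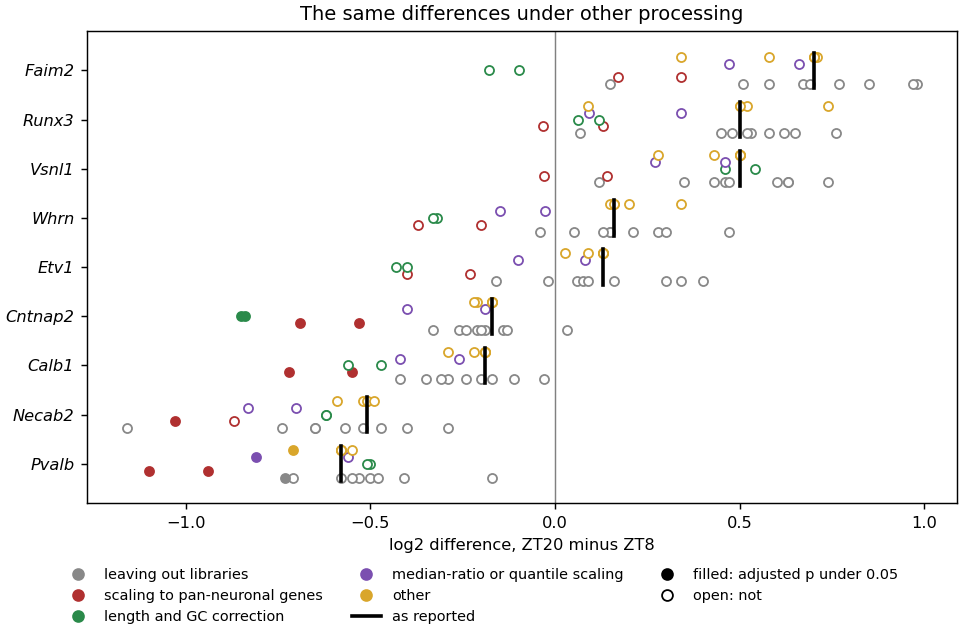
Log2 difference (ZT20 minus ZT8) of each marker gene as reported (black bar) and under the alternatives (points, coloured by kind, filled where the adjusted p-value was under 0.05), without the fit that used the pan-neuronal score as a covariate. Filled points occur for Pvalb, Calb1, Cntnap2 and Necab2, all below 0, and the points of Etv1, Whrn, Runx3, Vsnl1, Faim2 and Cntnap2 fall on both sides of 0.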

How the data were processed

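The authors deposited 1 table of TPM (length-corrected transcript abundance) for 54309 genes and 7 samples, 1 column each, matched by title; 0 columns of sample values were left unused. Per the submitters' processing notes, FastQC 0.11.9, Trim Galore 0.6.6, Salmon 1.6.0, DESeq2 1.34.0 and the build GRCm39 were involved; annotation, strand handling and scaling between samples are not given in the sources used here.

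Genes whose mean reached 1 TPM (14800) were fitted with limma 3.58.1 (R 4.3.3) on log2(TPM + 1), with an intensity trend, all 7 samples, no covariates, two-sided tests and Benjamini-Hochberg adjustment; a called gene has an adjusted p-value under 0.05. Differences on this scale understate changes of scarce genes. The procedure was tested on simulated data whose noise was drawn separately for each gene. Shifts shared by many genes of a library were not simulated.

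The genes and lists were chosen with earlier results of these data known. By a fixed rule all 9 members are named, with the called, non-overlapping genes of largest difference (at most 4) and the most abundant gene of each list; for lists of other cell types mainly counts and sums are given, and genes the rule named there are mostly not printed. A few genes that the rule names are not reported here. B and plasma cell genes summed to 12.0 to 194 TPM at ZT20 and 220 to 618 TPM at ZT8 (0 of 5 tested called higher, 1 lower). Of 10 macrophage genes 1 was called higher and 1 lower, and 0 of 5 fibroblast and endothelial genes and 0 of 5 red blood cell genes were called, beside 16.4% of all genes. Red blood cell genes summed to 9534 TPM in ZT8 replicate 2, 1603 and 951 TPM in ZT8 replicates 1 and 3, and 2369 to 6679 TPM at ZT20. Their part in the levels of the 9 marker genes was not tested.

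Alternatives were another pseudocount (0.1), another filter (none, or 5 TPM on average), median-ratio, quantile and pan-neuronal scaling, a pan-neuronal covariate, the replicate number as a block, no trend, array weights, a threshold of 0.10, a length and GC correction (loess, span 0.3, GENCODE M21, 14745 genes) and leaving out libraries. Python 3.11.15, pandas 2.3.3 and matplotlib 3.10.9 were used.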

Additional observations from a re-analysis of the deposited data

Results flagged for a closer look

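Among 35 named genes, 4 had 1 ZT20 library far from the other 3, with a gap beyond Dixon's 95% critical share of the range; chance gives about 1.75 in 35. One of the 9 marker genes was among them: Etv1 had 65.0 TPM in ZT20 replicate 2, where the remaining ZT20 libraries had 102 to 108 TPM (gap share 0.858). The same library was low for Ngfr, at 908 TPM against 1315 to 1341 TPM, and for Cntnap1, at 23.0 TPM against 34.7 to 36.4 TPM. In ZT20 replicate 1 Adcyap1 was high, 154 TPM beside 77.4 to 88.5 TPM. Groups of 3 were not examined in this way, so the low values of ZT8 replicate 2 could not be flagged.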

How the results depend on the processing

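Depth is unknown, so the counting error of the scarce genes Runx3, Whrn and Necab2 could not be given. After seeing the data, 2 alternatives were added: pan-neuronal scaling without Eno2, and the block joined to the length and GC correction. Unless stated, the cause of a change was not tested.

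Of the 9 marker genes 0 were called higher in any alternative. Counts called lower were 1 under median-ratio scaling, array weights, the threshold of 0.10 (each Pvalb), the length and GC correction and its fit with the replicate block (each Cntnap2), 4 under pan-neuronal scaling, 3 without Eno2 in it, and 3 with the pan-neuronal score as covariate (Etv1, Faim2 and Vsnl1). Leaving out 1 replicate gave 0 to 1. Over all genes 1178 were called without a filter, 3931 under pan-neuronal scaling, 1381 with the covariate, 1174 with the replicate block, 3899 with array weights, 4079 at the threshold of 0.10, 1336 after the length and GC correction, 557 with that and the block, and 624 to 3055 with 1 replicate left out. Without the ZT20 libraries lacking Y-linked transcripts 0 were called by limma (2425 with an unadjusted p-value under 0.05), and 0 without the one holding Xist as well (1133).

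Signs turned as follows. Under median-ratio scaling: Etv1 −0.099, Whrn −0.026, Calca −0.14, Cbfb −0.073. Under quantile normalization Whrn was −0.15. Under pan-neuronal scaling: Runx3 −0.032, Etv1 −0.40, Vsnl1 −0.029, Whrn −0.37, Nefl −0.24, Calca −0.44, Cbfb −0.37. Without Eno2 in the scaling: Etv1 −0.23, Whrn −0.20, Nefl −0.078, Calca −0.27, Cbfb −0.20. After the length and GC correction: Etv1 −0.40, Faim2 −0.097, Whrn −0.32, and with the replicate block added −0.43, −0.18 and −0.33. Without the libraries lacking Y-linked transcripts Etv1 was −0.018. With 1 replicate left out Etv1 ran from −0.16 to 0.40, Cntnap2 from −0.33 to 0.031, Whrn from −0.042 to 0.30, Nefl from −0.069 to 0.48, Calca from −0.026 to 0.19 and Gnai3 from −0.13 to 0.15.

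With the pan-neuronal score as covariate, which separates the groups fully, so that differences were extrapolated, these signs turned: Runx3 −2.44, Etv1 −2.72, Faim2 −3.59, Vsnl1 −2.67, Nefh −0.25, Ntng1 −1.73, Maf −1.28, Nefl −2.58, Sst −1.16, Ntrk3 −0.20, Ngfr −1.15, Cntn2 −1.30, Epb41l3 −0.17 and Cntnap1 −3.13.

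Whether the replicate numbers pair the samples could not be settled with so few libraries. Deviations of ZT20 and ZT8 libraries with the same number correlated at −0.0141, 0.153 and 0.083 across genes. Those with different numbers correlated at −0.168 to 0.15. With the replicate block 0 of the 9 genes were called, with Pvalb at −0.55 (limma adjusted p = 0.11).

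Of the named genes that passed, 7 lost the call without ZT20 replicate 1, 4 without replicate 2, 10 without replicate 3 and 8 without replicate 4; 2 lost it without ZT8 replicate 1 and 3 without ZT8 replicate 3. Sst lost it without any 1 of the ZT20 libraries or ZT8 replicate 3, and Runx1 without any 1 library other than ZT8 replicate 2. None of these changed sign with 1 library left out.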
